A study of Mus musculus with 6 samples.

Results

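The genes of the cytosolic ribosomal proteins were compared between the colon of DSS-treated mice lacking Nedd4l in the intestinal epithelium and that of their littermates. They were taken from the deposited table as the protein-coding genes whose symbol begins with Rpl or Rps followed by a digit, together with Rplp0, Rplp1, Rplp2 and Rpsa, leaving out the Rps6k kinases and names containing -ps. This gave 85 of the 27202 genes listed, 51 of the large subunit and 34 of the small subunit. Of these, 77 carry the symbol of a standard ribosomal protein, 46 of the large and 31 of the small subunit. The other 8 are the paralogs Rpl3l, Rpl7l1, Rpl22l1, Rpl36al, Rpl39l and Rps27l, the retrogene Rps27rt, and Rps19bp1, which encodes a protein that binds Rps19 and is no ribosomal protein.

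The study sequenced total RNA of colonic tissue from mice on the C57BL/6J background aged 8 to 10 weeks, all of which drank 2% dextran sulfate sodium (DSS), a polysaccharide that injures the colonic epithelium, and were killed on day 7. The 3 Nedd4l fl/fl Villin Cre libraries (cKO1, cKO2 and cKO3) come from mice in which the Villin promoter drives Cre in intestinal epithelial cells. The 3 control libraries (WT1, WT2 and WT3) come from littermates that carry the same floxed alleles and received the same DSS. The tissue was whole colon, so it holds many cells without Villin promoter activity, and the sex of the mice was not considered here. The labels treat the libraries as separate samples and tie none of them to a named animal, so the p-values measure only the spread between these samples.

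Each cytosolic ribosome carries a large subunit, which forms peptide bonds, and a small subunit, which reads the mRNA. Almost every ribosomal protein is made from a single expressed gene, and the proteins are needed in nearly equal numbers. Most of their mRNAs begin with a run of pyrimidines, through which growth signals set their translation, and in the colon the rapidly renewing crypt cells and antibody-producing plasma cells make much protein. Bulk RNA measures mRNA levels only, and a lower level cannot tell fewer cells of a type from less RNA per cell.

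Values are normalized counts, that is, reads per gene that the authors divided by 1 size factor per library. Each library's values were whole multiples of a library-specific step, and the sums in steps ran from 14914367 to 17547270. Nedd4l, the targeted gene, was at 476, 942 and 566 normalized counts in cKO1, cKO2 and cKO3 and at 1241, 1271 and 1266 in WT1, WT2 and WT3. Every cKO library was below every WT library, cKO2 the least so. Fold changes were computed as the difference of mean log2(normalized count + 1) with limma over 16246 genes (mean of 10 or more), and p-values were adjusted over all of these genes. Of the 85 ribosomal protein genes 83 were tested, 49 of the large and 34 of the small subunit, and only Rpl39l and Rpl3l fell under the filter.

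The annotated starts of these genes were searched for the pyrimidine run. RefSeq promoters on GRCm38.p6 were found for 65 of the 85 genes. In 20 of the 65 (30.8%) a run of at least 6 C or T covered an annotated start on the gene strand, against 8.48% of all 27025 symbols in the same table. The letters CTTTCC lay within 50 bases of a start on the gene strand in 21 (32.3%) against 5.43%. Shown here, 5′ to 3′ on the gene strand, are 30 bases around a start for genes named below, with the pyrimidine run that covers the start in capitals and the start itself at base 6. The first 5 had a positive fold change in cKO libraries, the next 3 a negative one, and the last 4 hold no such run at the annotated start. Whether the mRNAs begin at these annotated starts was not tested, so a window without a run does not show an mRNA without one.
Rpl38: tcgTTCTTTCCCCgttctcttcggttctca
Rpl35a: CCTTCCTCTTTCCgccatcttggcgcctgt
Rps21: ccgCCCTCCTgcccaatagtgctgcggagg
Rps27: tcgCTCCTTTCCggcggtgacgacctccct
Rps27rt: ccttgCTTTCCggcggtgacgacctcccta
Rpl14: TCTCTCTTCTCgctgagcgccgccaacatg
Rplp2: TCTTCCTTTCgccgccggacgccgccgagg
Rps10: cgCCCCTTCCTTTCCagcctccgcctcgga
Rpsa: taaggacgtcatttccggccgcccgtcctt
Rplp0: ttcgaggaccgcctggttctcctataaaag
Rpl41: ggctcggaagtgacgacaccgagcacgcca
Rps16: tcgtgacgtagcactcaatgcgcctgcgca

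These windows lie at chr11:114668575-114668604 (plus strand) for Rpl38, chr16:33056477-33056506 (plus) for 1 of several Rpl35a starts, chr2:180257374-180257403 (plus) for 1 of several Rps21 starts, chr3:90213624-90213653 (minus) for Rps27 and chr9:114982715-114982744 (minus) for Rps27rt. Those of Rpl14 and Rplp2 lie at chr9:120571512-120571541 (plus) and chr7:141447646-141447675 (plus), and that of Rps10 at chr17:27635220-27635249 (minus). Those of Rpsa, Rplp0, Rpl41 and Rps16 lie at chr9:120127761-120127790 (plus), chr5:115559462-115559491 (plus), chr10:128549144-128549173 (minus) and chr7:28350684-28350713 (plus). Further letters were searched in the 300 bases from 250 before to 50 after each start, on both strands. CCGGAAG was found in 26 of 65 genes (40.0%) against 9.93% of all symbols, CTTTCC in 35 (53.8%) against 29.3%, AAGATGGCG in 4 (6.15%) against 1.64%, and TATAAA in 7 (10.8%) against 15.7%. A match describes these letters only and is no evidence of binding.

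Ribosomal protein mRNAs were slightly higher on average, as a group, in the cKO libraries than in the WT libraries, although WT3 lay above cKO3. The genes share the same libraries, so counts of genes are no replicates of a genotype. Of the 83 genes tested, 76 had a positive log2 fold change, which is 91.6%, where 50.2% of all genes tested did. The median log2 fold change was 0.14, beside 0.0013 over all genes, and the quartiles of the group were 0.08 and 0.20. None passed an adjusted p of 0.05 in limma (0 of 83, with a smallest adjusted p of 0.125), and 0.0% of all genes tested did. The targeted gene Nedd4l did not pass either (log2 fold change −0.99, adjusted p = 0.225 in limma). At an unadjusted p under 0.05, 12 of the 83 (14.5%) were higher and 0 were lower, where 6.91% of all genes were higher and 7.08% lower. This excess over all genes depended on the libraries. The number higher was 3 (3.61%) without WT1, where 5.99% of all genes were, 4 (4.82%) without WT2, where 4.91% were, and 5 (6.02%) without cKO2, where 8.94% were, so that in these settings the share was below that of all genes. Without WT3 it was 20 (24.1%), where 5.08% of all genes were. With limma's array weights the median was 0.08, and 14.5% of the ribosomal protein genes were higher where 12.8% of all genes were. In that setting 64 of the 83 had a positive fold change, against 76 in the main fit, and the median over all genes was 0.0006. For 24 genes (28.9%) every cKO library lay above every WT library, 12 in each subunit, where 10.5% of all genes did so, and 0 lay below, where 10.9% did.

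The libraries of a genotype were not alike. Relative to the WT mean, the median ribosomal protein gene lay at 0.15 in cKO1, 0.19 in cKO2 and 0.06 in cKO3, and at −0.01, −0.06 and 0.08 in WT1, WT2 and WT3, in log2 units. WT3 thus lay above cKO3, and the groups overlapped in this summary. Over the 83 genes, cKO2 was the highest library for 42 and cKO1 for 23, while WT2 was the lowest for 49 and WT1 for 23. Left out in turn, no library brought the number with a positive fold change under 72 of 83 or over 76. The number without overlap was 50 of 83 without WT3, where 15.4% of all genes were so, and 50 of 83 without cKO3, where 14.6% were, and it lay between 26 and 28 without any other library, where 15.1% to 18.5% of all genes were so.

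**Figure D1:**
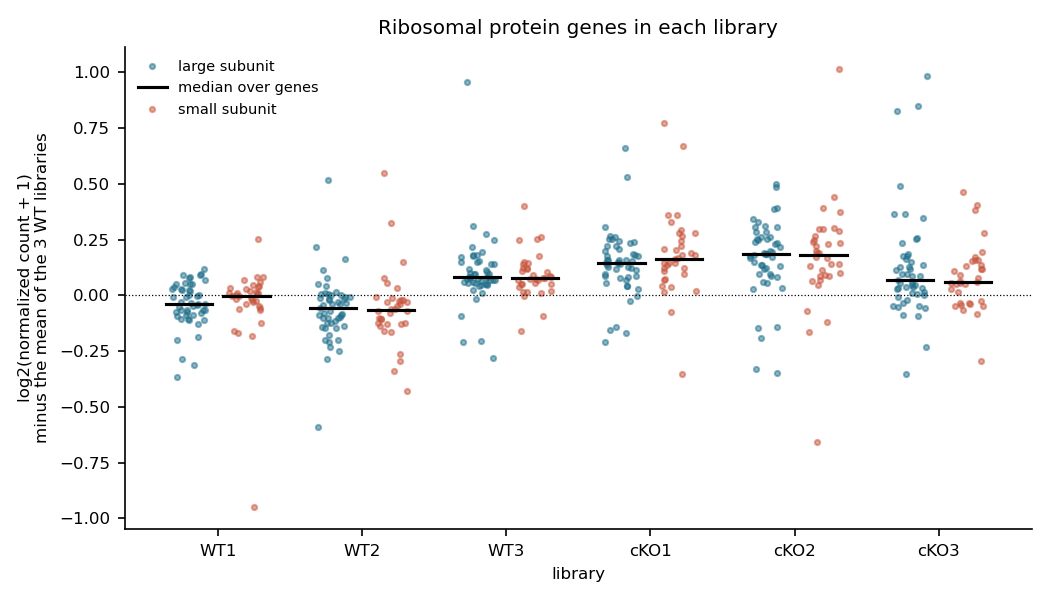
Each point is 1 of 83 ribosomal protein genes in 1 library, plotted as log2(normalized count + 1) minus the mean of the 3 WT libraries, with the large subunit in blue, the small subunit in red and medians as black bars. Both subunits sit highest in cKO1 and cKO2, and WT3 lies at about the level of cKO3.

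The members' share of all normalized counts gives the same picture on a scale that needs no logarithm. They took 3.33%, 3.13% and 3.06% of the counts of cKO1, cKO2 and cKO3, and 2.83%, 2.81% and 3.08% of those of WT1, WT2 and WT3. On average the share was 3.17% ± 0.140 in cKO (SD, n = 3) and 2.91% ± 0.149 in WT libraries (SD, n = 3). The groups overlapped, because WT3 exceeded cKO3. Without the mitochondrially encoded and immunoglobulin genes in the total the difference was 0.275 percentage points, against 0.263 with them.

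The large and small subunits had nearly equal medians. The median log2 fold change was 0.14 for the 49 large-subunit genes, 45 of which were positive, and 0.15 for the 34 small-subunit genes, 31 of which were positive. Large-subunit genes took 1.90%, 1.81% and 1.76% of counts in cKO1 to cKO3 and 1.64%, 1.61% and 1.78% in WT1 to WT3. Small-subunit genes took 1.43%, 1.33% and 1.29% in cKO1 to cKO3 and 1.20%, 1.20% and 1.30% in WT1 to WT3. The ratio of the large to the small share was 1.33, 1.36 and 1.37 in the cKO libraries and 1.37, 1.34 and 1.37 in the WT libraries. These ratios overlapped, with means of 1.35 ± 0.0196 (SD, n = 3) and 1.36 ± 0.0153 (SD, n = 3), so no shift between the subunits exceeded the spread between libraries. With 77 standard symbols alone the median was 0.14 again, and 71 of 77 were positive.

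**Figure D2:**
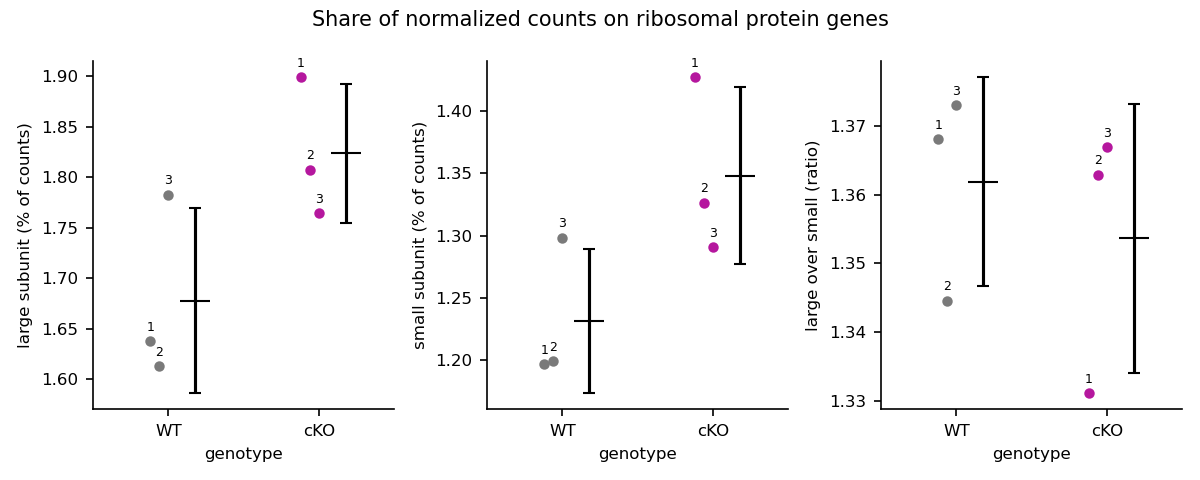
Points are the percentage of each library's normalized counts on large-subunit genes (left) and on small-subunit genes (middle), and the ratio of these shares (right), numbered by replicate, with the mean and SD of 3 libraries per genotype beside them. The vertical axes do not begin at 0. The shares of WT3 lie above those of cKO3, and the ratios overlap.

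Among large-subunit proteins, Rpl38 had the smallest p. Rpl38, a surface protein of the large subunit known for its role in translating Hox mRNAs, is encoded at chr11:114668524-114672331 on the plus strand (ENSMUSG00000057322). Its normalized count was 1426, 1395 and 1387 in cKO1, cKO2 and cKO3 and 989.5, 920 and 1056 in WT1, WT2 and WT3. The groups were far apart and each was tight, with means of 1403 ± 20.6 (SD, n = 3) and 989 ± 68.1 (SD, n = 3). This is 1.42-fold, a log2 fold change of 0.51 (standard error 0.08), with an unadjusted p of 0.000261 and an adjusted p of 0.125 in limma. The pseudogene Rpl38-ps2, which holds 40.2% of the 50-base windows of the Rpl38 transcript, was at 336 ± 20.5 (SD, n = 3) in cKO and 354 ± 55.5 (SD, n = 3) in WT libraries.

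A further 6 large-subunit genes had an unadjusted p under 0.05, and all were higher in cKO libraries. Rpl39, a short protein at the wall of the tunnel through which the nascent chain leaves, was at 3271, 3458 and 3246 in cKO1 to cKO3 and at 2706, 2354 and 3166 in WT1 to WT3. The lowest cKO library was just above WT3 (log2 fold change 0.29, standard error 0.11, adjusted p = 0.329). Rpl36a, encoded on the X chromosome, was at 2001, 2030 and 2055 against 1679, 1556 and 1939, with no overlap (0.24, standard error 0.09, adjusted p = 0.333). Rpl35a, which is mutated in some families with Diamond-Blackfan anemia, was at 2345, 2662 and 2578 against 1876, 1843 and 2410, so that WT3 exceeded cKO1 (0.32, standard error 0.12, adjusted p = 0.316). Rpl37a had a log2 fold change of 0.23, again without overlap. Rpl41, one of the shortest proteins known in eukaryotes, was at 12330, 12342 and 11246 against 9385, 9311 and 11309, and WT3 lay just above cKO3 (0.26, standard error 0.10, adjusted p = 0.317).

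The stalk of the large subunit, which recruits the elongation factors, is built from Rplp0 and pairs of Rplp1 and Rplp2. Rplp0, the base of the stalk, was at 26988, 25577 and 24988 in cKO1 to cKO3 and at 22515, 21207 and 23863 in WT1 to WT3. Its groups did not overlap (log2 fold change 0.20, standard error 0.08, adjusted p = 0.343). Rplp1 was at 9927, 10929 and 9601 against 8524, 8980 and 9434, also without overlap (0.18, standard error 0.08, adjusted p = 0.386). Rplp2 went the other way, at 2976, 2973 and 3082 against 2884, 3461 and 3532. Its lowest value was that of WT1, so the groups overlapped (−0.12, standard error 0.09, adjusted p = 0.566).

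Rpl5 and Rpl11 bind the MDM2 ubiquitin ligase together when ribosome assembly is disturbed. Rpl11 was at 7098, 7437 and 6678 in cKO1 to cKO3 and at 5925, 6161 and 6665 in WT1 to WT3, the values of cKO3 and WT3 being nearly equal (log2 fold change 0.18, adjusted p = 0.373). Rpl5 was at 10373, 10078 and 9336 against 10040, 9045 and 10035, and its groups overlapped throughout (0.03, adjusted p = 0.877). Rpl10, which joins the large subunit late in its assembly, was at 12129, 11843 and 11068 against 10100, 10217 and 10939, without overlap (0.16, adjusted p = 0.383). Rpl8, which lies near the catalytic center, was at 10164, 10099 and 9252 against 9137, 10176 and 10346, and showed no shift (−0.01, adjusted p = 0.978). Rpl14 had the lowest fold change of the large subunit, at 4441, 3959 and 3857 against 4248, 4579 and 4758. Only cKO1 reached into the WT range (−0.15, standard error 0.09, adjusted p = 0.457). Rpl23a, which lies at the tunnel exit, was at −0.05 (adjusted p = 0.881) with overlapping groups.

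In the small subunit, Rps21, Rps29, Rps16, Rpsa and Rps20 had an unadjusted p under 0.05, all with every cKO library above every WT library. Rps21 was at 3160, 3257 and 3051 in cKO1 to cKO3 and at 2476, 2302 and 2795 in WT1 to WT3 (log2 fold change 0.33, standard error 0.09, adjusted p = 0.249). Rps29, a zinc-binding protein of the head of the subunit, was at 2209, 2331 and 2238 against 1775, 1401 and 2038, with 1.30-fold the WT mean (0.39, standard error 0.13, adjusted p = 0.295). In both genes WT3 was the WT library nearest to the cKO libraries. Rps16, whose tail reaches the tRNA in the decoding center, was at 7107, 7213 and 6596 against 5794, 5375 and 6463 (0.25, standard error 0.09, adjusted p = 0.313). Rpsa, also known as the laminin receptor precursor, was at 19821, 17362 and 17213 against 15390, 14934 and 15988, cKO1 standing above the rest (0.23, standard error 0.09, adjusted p = 0.316). Rps20 was at 6315, 5705 and 5790 against 5045, 5178 and 5405 (0.19, standard error 0.08, adjusted p = 0.342).

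The other small-subunit genes described here had an unadjusted p above 0.05. Rps3, which lines the mRNA entry channel, was at 11481, 12077 and 11140 in cKO1 to cKO3 and at 10338, 9839 and 10616 in WT1 to WT3, without overlap (log2 fold change 0.17, adjusted p = 0.360). Rps6, the substrate of the S6 kinases, was at 9680, 9319 and 8717 against 8705, 8744 and 9184, and its groups overlapped (0.06, adjusted p = 0.754). Rps3a1 was at 0.04 (adjusted p = 0.808). Rps13 was at 3324, 2910 and 3060 against 2789, 3235 and 3495 (−0.03, adjusted p = 0.908). Rps28 was at 2324, 2618 and 2226 against 2113, 1579 and 2378, the low value of WT2 being apart from the rest (0.26, adjusted p = 0.464). The gene outside the ribosome, Rps19bp1, was at 258, 259 and 222 against 242, 341 and 244 (−0.15, adjusted p = 0.706).

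**Figure D3:**
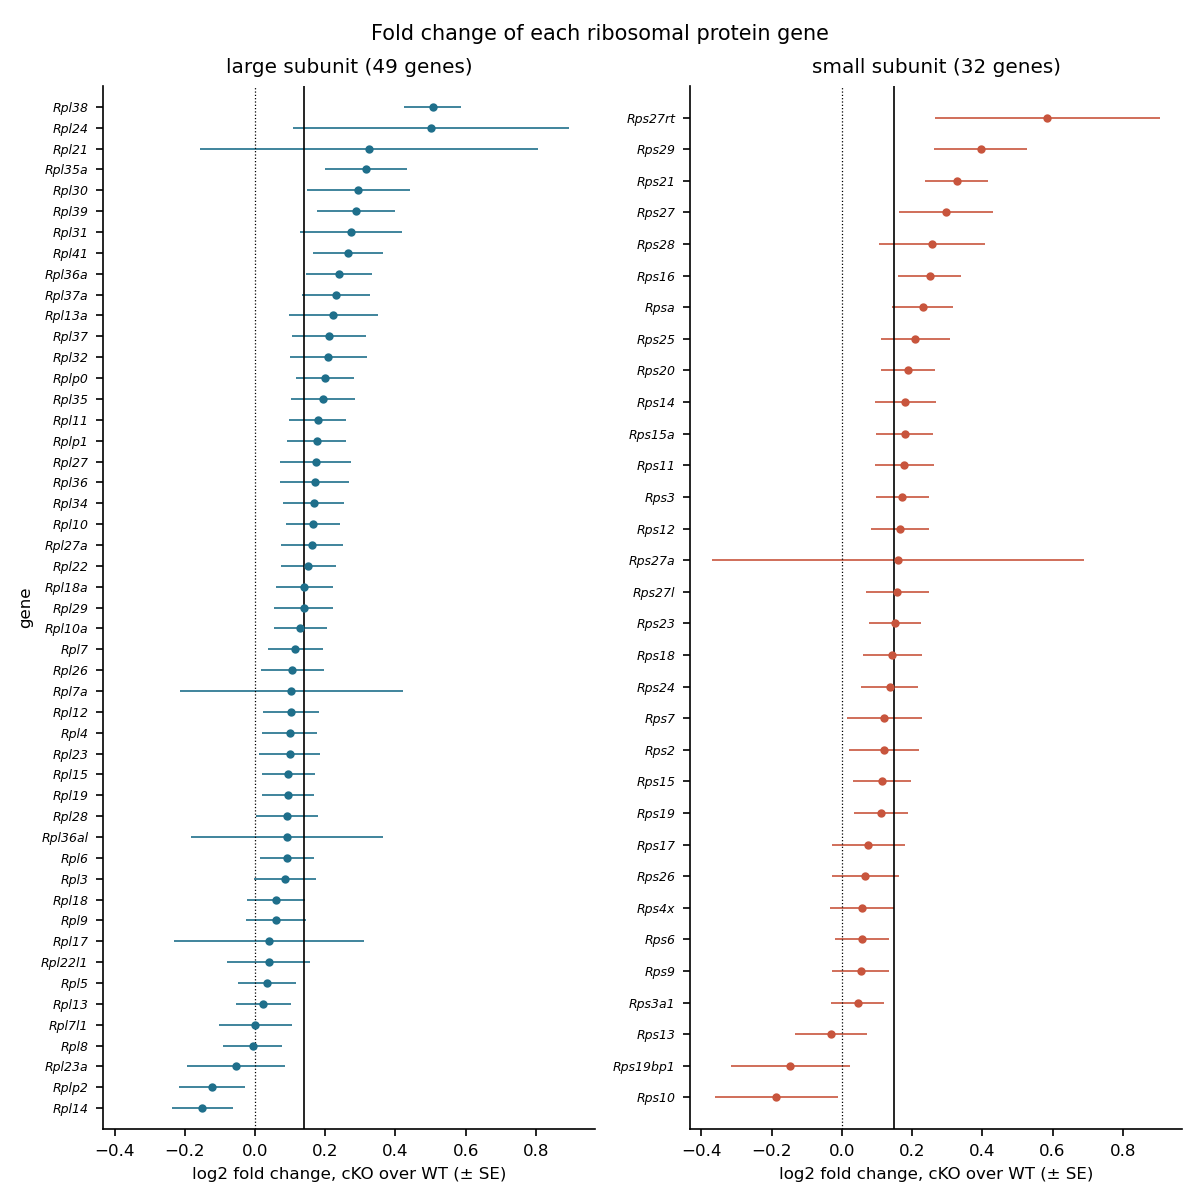
Log2 fold change of cKO over WT for the 49 large-subunit (left) and 32 of the 34 small-subunit genes tested (right), with the standard error from limma as bars, ordered by value, a dotted line at 0 and a solid line at the median of all genes tested in the subunit. Of the genes drawn, 4 of the large and 3 of the small subunit lie below 0, and the widest bars belong to Rps27a, Rpl21, Rpl24 and Rps27rt.

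**Figure D4:**
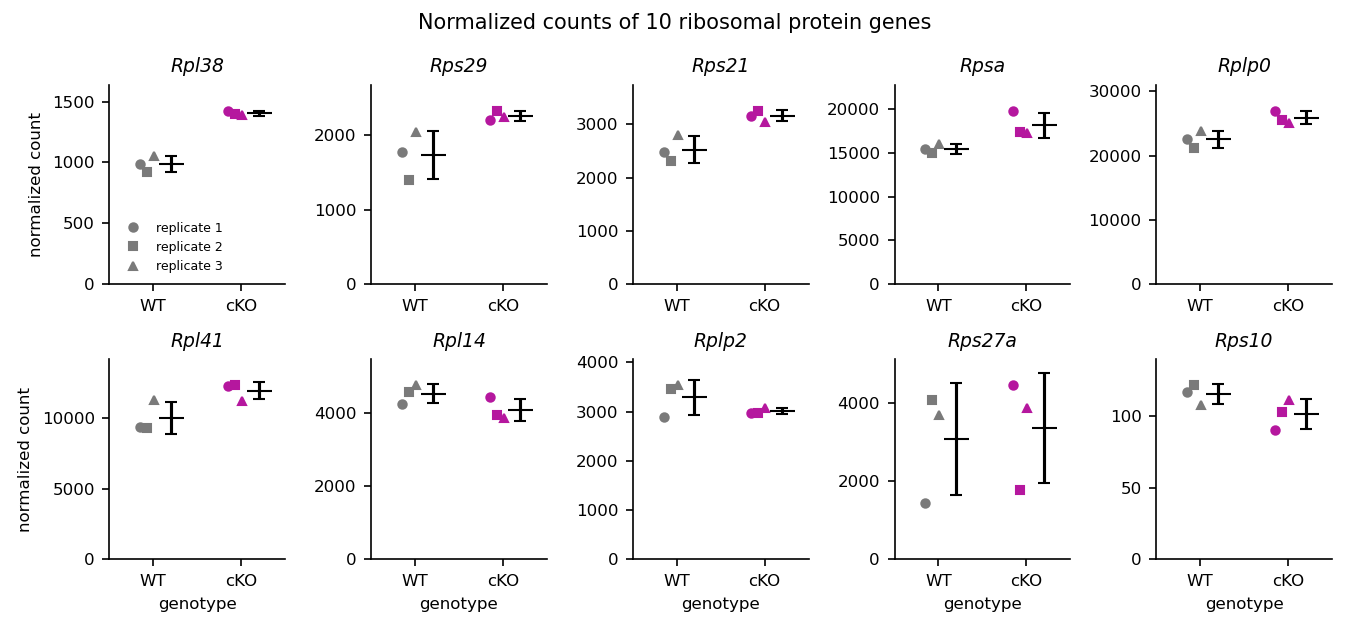
Normalized counts of 10 ribosomal protein genes, with each point 1 library (marker shape gives the replicate number) and the mean and SD of 3 libraries per genotype beside them. The axes begin at 0. Rpl38, Rps29, Rps21, Rpsa and Rplp0 show separate groups, while the other 5 genes overlap.

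Of the 83 genes, 7 were lower in cKO libraries on average, and none had an unadjusted p under 0.05. They were Rps10, Rpl14, Rps19bp1, Rplp2, Rpl23a, Rps13 and Rpl8. Printed start windows were found for 5 of these, and 3 held a pyrimidine run at the start, while 3 of the 10 windows available for the 12 genes higher at an unadjusted p under 0.05 did. The run therefore occurred on both sides of the comparison.

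Levels between genes were compared per length, as normalized count per kilobase of the gene length in the table, scaled so that each library sums to 1000000. On this scale Rplp1 was highest at 3544, followed by Rplp0 at 2697, Rps3a1 at 2462, Rpl41 at 1739, Rps15 at 1573 and Rpl4 at 1561. The order of the leading genes depends on the length used. With the length of the principal transcript instead, the large subunit was led by Rplp1 (rank 1), Rpl41 (rank 2) and Rplp0 (rank 3). Rps3a1 led the small subunit by both lengths, and Rps15 moved from rank 2 to rank 7.

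Counts were compared within 7 pairs of genes of related sequence. Rpl22, a protein of the large subunit that also binds RNA on its own, was at 3265, 3347 and 3229 in cKO1 to cKO3 and at 2743, 2969 and 3157 in WT1 to WT3 (log2 fold change 0.15, adjusted p = 0.420). Its paralog Rpl22l1 was at 658, 877 and 736 against 692, 731 and 773 and overlapped (0.04, adjusted p = 0.898). Rpl22l1 took 18.7% ± 2.00 (SD, n = 3) of the counts of the pair in cKO and 19.9% ± 0.256 (SD, n = 3) in WT libraries (exact permutation test, two-sided p = 0.40). With 3 against 3 libraries the smallest p this test can give is 0.10.

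Rps27 and its paralog Rps27l, a p53 target, share sequence with further copies. Rps27 was at 2550, 2540 and 2855 in cKO1 to cKO3 and at 2154, 1794 and 2584 in WT1 to WT3 (log2 fold change 0.30, adjusted p = 0.365), cKO and WT overlapping through WT3. Rps27l was at 1328, 1598 and 1418 against 1330, 1260 and 1294 (0.16, adjusted p = 0.451). Rps27l took 35.3% ± 2.88 (SD, n = 3) of the pair's counts in cKO and 37.6% ± 3.97 (SD, n = 3) in WT libraries (exact permutation test, two-sided p = 0.60). Rps27 shares 98.6% of its 50-base windows with other genes, and every window of the retrogene Rps27rt occurs in Rps27. Rps27rt was at 1328, 1572 and 759 against 925, 577 and 879, and the summed counts of Rps27 and Rps27rt were 3877, 4112 and 3614 against 3079, 2371 and 3463. The sums did not overlap although Rps27rt alone did. How reads of such copies were divided between them is not stated.

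The remaining pairs were dominated by 1 member. Rpl7l1, a nucleolar relative of Rpl7, took 10.9% ± 0.205 (SD, n = 3) of the pair's counts in cKO and 11.8% ± 1.55 (SD, n = 3) in WT libraries (exact permutation test, two-sided p = 0.40). The pseudogene-annotated Rps4l took 0.852% ± 0.287 (SD, n = 3) of its pair with the X-linked Rps4x in cKO and 1.26% ± 0.355 (SD, n = 3) in WT libraries (exact permutation test, two-sided p = 0.30). Rpl36al, at 23.4 to 34.9 normalized counts, took 1.45% ± 0.109 (SD, n = 3) in cKO and 1.60% ± 0.149 (SD, n = 3) in WT libraries of its pair with Rpl36a (exact permutation test, two-sided p = 0.20). Rpl3l, which is known from heart and skeletal muscle, was at 0 to 2.70 normalized counts beside 10342 to 12464 for Rpl3. Rpl39l, known from the testis, was at 4.13 in cKO3 and at 0 in the other 5 libraries. A count of 0 still allows an expected number of up to about 3 reads.

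Several genes varied between libraries of 1 genotype by far more than the group as a whole. Rps27a, which is made as a fusion with ubiquitin, was at 4452, 1774 and 3862 in cKO1 to cKO3 and at 1448, 4087 and 3696 in WT1 to WT3. Its low libraries, cKO2 and WT1, belong to different genotypes, and the standard error of its log2 fold change of 0.16 was 0.53. The pseudogene Gm8430, which holds 50.2% of the windows of the Rps27a transcript, was highest in those libraries, at 283 in cKO2 and 323 in WT1, and lay between 165 and 241 in the other 4. Gm8430 thus differed by far fewer counts than Rps27a, and whether reads passed between these genes was not tested. Rpl21 was at 853, 1242 and 1778 against 765, 654 and 1916, highest in the libraries numbered 3. Rpl7a was at 1846, 1631 and 3677 against 1805, 2147 and 2303, with cKO3 standing alone. Rpl17 was at 1655, 1245 and 2013 against 1259, 2238 and 1355, and its pseudogene Rpl17-ps10 at 2725, 2683 and 1854 against 2395, 1390 and 2617. Rpl17 was highest in WT2 and cKO3, the libraries in which Rpl17-ps10 was lowest, and their sum ran from 3628 to 4381 over the 6 libraries.

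Some standard genes had few counts. Rpl24 was at 22.0, 12.2 and 27.9 in cKO1 to cKO3 and at 14.8, 15.3 and 11.0 in WT1 to WT3, and its exons overlap those of Gm28037 in the annotation. Rps10 was at 90.1, 103 and 111 against 117, 121 and 108 and overlaps the readthrough gene RPS10-NUDT3. The pseudogene Rps10-ps2 was at 1349 ± 122 (SD, n = 3) in cKO and 1322 ± 106 (SD, n = 3) in WT libraries. Rpl13a was at 444, 463 and 406 against 343, 435 and 351 and overlaps Gm45713. Whether these overlaps lowered their counts was not tested, and their log2 fold changes (0.50, −0.19 and 0.22) have adjusted p-values of 0.577, 0.639 and 0.449.

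Near-identical copies are a general feature of this family. The median gene had 49.4% of its transcript's 50-base windows in another gene's transcripts, and 42 of 85 had over 50%. The table lists 157 pseudogenes of the family, 62 of which passed the filter, and their summed counts equalled 3.47% to 3.87% of those of the 85 genes. Of the 62, 33 were higher and 29 lower in cKO libraries, with a median log2 fold change of 0.03, so their median was lower than that of the protein-coding genes. Among the 8 tested genes with under 10% of windows shared, 6 were positive, where 50.2% of all genes were, and the median was 0.14. For 5 of the 8 every cKO library lay above every WT library, where 10.5% of all genes did so. Among these 5 were Rps20, Rps3, Rps15a and Rpl22. The list is small and includes Rps19bp1, which is no ribosomal protein and had a negative fold change. By sharing under 25%, 25% to 75% and over 75%, the medians were 0.14 (13 genes), 0.15 (49 genes) and 0.13 (21 genes).

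The median fold change was larger for short transcripts, which is a description without a test. The 20 genes with a principal transcript under 600 bases had a median log2 fold change of 0.20, the 33 of 600 to under 1000 bases 0.13 and the 30 of at least 1000 bases 0.12. Across the 83 genes, log2 fold change and log2 transcript length had a Pearson correlation of −0.27 and a Spearman correlation of −0.27. These are correlations across genes that share libraries, so they describe these 6 libraries. When the trend of each library with gene length over all genes was removed, the median of the 83 genes was again 0.14 and 19 of them (22.9%) were higher at an unadjusted p under 0.05, where 7.3% of all genes were. The length removed was the deposited gene length and not that of the principal transcript, so the classes above were not tested by it.

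Ribosomal proteins are also made under other gene names. Fau, whose product is a fusion of a ubiquitin-like protein with a small-subunit protein, was at 5700, 6177 and 5686 in cKO1 to cKO3 and at 5188, 5086 and 5624 in WT1 to WT3, without overlap (log2 fold change 0.14, adjusted p = 0.433). Rack1, a scaffold on the small subunit, was at 13908, 13535 and 12996 against 13020, 12420 and 13230 and overlapped (0.06, adjusted p = 0.706). Neither had an unadjusted p under 0.05.

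The genes that build ribosomes lay on the other side. Ribosome biogenesis genes process ribosomal RNA and assemble the subunits. Of 110 tested, 97 were lower in cKO libraries and 13 higher, and the median log2 fold change was −0.19. At an unadjusted p under 0.05, 26 (23.6%) were lower, where 7.08% of all genes were, and 2 (1.82%) higher, where 6.91% were, and 0 passed the adjusted threshold in limma. Noc2l, a nucleolar assembly factor, was at 1146, 997 and 1061 against 1541, 1441 and 1274 (−0.41, adjusted p = 0.211). Ddx27, a nucleolar helicase, was at 690, 625 and 607 against 899, 862 and 798 (−0.41, adjusted p = 0.202). Polr1a, the largest subunit of RNA polymerase I, was at 706, 626 and 596 against 880, 831 and 802 (−0.38, adjusted p = 0.215). These 3 genes had the smallest p of the list, and in all 3 the groups did not overlap. Over the whole list, every cKO library lay below every WT library for 26 of 110 genes (23.6%), where 10.9% of all genes did so. The medians per library were −0.09, −0.22 and −0.27 in cKO1 to cKO3 and 0.08, 0.06 and −0.14 in WT1 to WT3, so that WT3 lay below cKO1.

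The mitochondrial ribosome is assembled from a separate set of nuclear genes, and their median lay below 0. Of 77 mitochondrial ribosomal protein genes, 64 were lower in cKO libraries and 13 were not, and the median log2 fold change was −0.10. At an unadjusted p under 0.05, 7 (9.09%) were lower, near the 7.08% of all genes, and 0 higher, and 0 passed the adjusted threshold in limma. For 19 of them (24.7%) every cKO library lay below every WT library, where 10.9% of all genes did so. The medians per library were −0.15, −0.06 and −0.16 in cKO1 to cKO3 and −0.07, 0.08 and 0.0004 in WT1 to WT3, so the groups overlapped, WT1 lying below cKO2. Mrps27 was at 460, 387 and 379 against 543, 600.1 and 538 (−0.46, adjusted p = 0.214). Mrpl38 was at 546, 600.3 and 551 against 672, 811 and 746 (−0.39, adjusted p = 0.226). Mrps25 was at 323, 349 and 288 against 414, 459.7 and 409 (−0.42, adjusted p = 0.257). The difference between the cytosolic and the mitochondrial list is a description of their medians and was not tested.

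Translation factors were mixed, and most snoRNA host genes were lower. Among 51 translation factors 21 were higher and 30 lower, with a median of −0.01, 1 (1.96%) higher and 4 (7.84%) lower at an unadjusted p under 0.05, beside 6.91% and 7.08% of all genes. Eif3b, a core subunit of the factor that loads the small subunit, was at 3753, 3349 and 3030 against 4182, 4445 and 4106 (−0.33, adjusted p = 0.257). Eif4g1 (−0.23, adjusted p = 0.310) and Pabpc4 (−0.23, adjusted p = 0.296) were also lower in every cKO library than in any WT library. These 3 factors had the smallest p of the list, in which 6 of 51 (11.8%) were lower without overlap. That is near the 10.9% of all genes. Among 12 tested snoRNA host genes, many of whose spliced RNAs also begin with pyrimidines, 10 were lower, 2 of them (16.7% of the list) at an unadjusted p under 0.05, where 7.08% of all genes were, with a median of −0.22. Gas5 was at 1238, 1035 and 1179 against 1464, 1304 and 1264 (−0.23, adjusted p = 0.362). Snhg5 (−0.30, adjusted p = 0.338) and Snhg18 (−0.54, adjusted p = 0.356) were lower without overlap. Both were among the 3 smallest p of the list, in which 5 of 12 (41.7%) were lower without overlap, where 10.9% of all genes were.

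Regulators of the family and of ribosome synthesis were mixed, with 14 of 31 higher, 17 lower and a median log2 fold change of −0.03. At an unadjusted p under 0.05 there were 1 (3.23%) higher and 4 (12.9%) lower, beside 6.91% and 7.08% of all genes. Cnbp, a nucleic acid binding protein linked to mRNAs with pyrimidine starts, was at 4517, 3867 and 3763 in cKO1 to cKO3 and at 5121, 5047 and 4644 in WT1 to WT3 (−0.29, adjusted p = 0.284). Trp53 was at 983, 840 and 802 against 1085, 1096 and 1114 (−0.33, adjusted p = 0.263). Mycn, a transcription factor of the Myc family, had few counts, at 15.3, 6.63 and 6.19 against 22.7, 28.8 and 20.97 (−1.37, adjusted p = 0.278). Among 20 cell cycle genes 18 were lower, 13 (65.0%) at an unadjusted p under 0.05, where 7.08% of all genes were, with a median of −0.54. Mcm6, Mcm7 and Pcna, which act in DNA replication, were at −0.77, −0.69 and −0.67 (adjusted p = 0.138, 0.138 and 0.137 in limma). In all 3, picked for the smallest p of the list, every cKO library lay below every WT library. Of the 20 genes 13 (65.0%) were so, where 10.9% of all genes were.

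**Figure D5:**
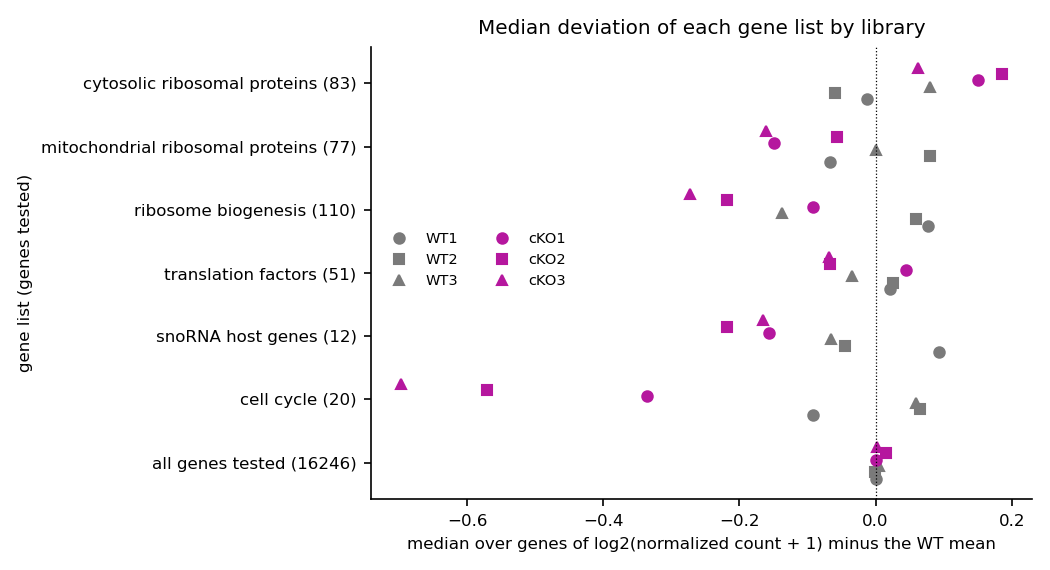
Each symbol is 1 library and gives the median over the genes of a list of log2(normalized count + 1) minus the WT mean, with cKO in magenta, WT in grey, marker shape by replicate number and the number of genes tested in brackets. The cKO medians of cytosolic ribosomal proteins lie between 0.06 and 0.19, while those of mitochondrial ribosomal proteins, ribosome biogenesis, snoRNA hosts and cell cycle lie below 0. Of these lists, the cKO and WT symbols overlap for cytosolic ribosomal proteins, mitochondrial ribosomal proteins and ribosome biogenesis, and do not for snoRNA hosts and cell cycle.

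Markers of the cell types in the tissue differed between the same libraries. Of 10 leukocyte markers 10 were higher in cKO libraries, with a median log2 fold change of 0.45, and their summed normalized counts ran from 8994 to 14096 in cKO and from 6879 to 9782 in WT libraries. The median leukocyte marker lay at 0.92, 0.25 and 0.25 in cKO1 to cKO3 and at −0.10, −0.23 and 0.30 in WT1 to WT3. WT3 was thus high both for leukocyte markers and for ribosomal proteins among the WT libraries. Library cKO1, far the highest for leukocyte markers, had the highest share of counts on ribosomal protein genes (3.33%), although below cKO2 for the median gene. Other libraries were ordered differently. WT3 lay above cKO2 for leukocyte markers but below it for ribosomal proteins (0.08 against 0.19). The medians of cKO2 and cKO3 were alike for leukocyte markers but 0.19 and 0.06 for ribosomal proteins. The 10 myeloid markers (median 0.71, sums 9757 to 15056 against 5808 to 7972) and the 10 fibroblast markers (median 0.67, sums 24789 to 47018 against 12470 to 21338) were all higher and their sums did not overlap. For B and plasma cells 8 of 10 markers were higher (median 0.35, sums 37453 to 49788 against 28942 to 47892), for endothelial cells 8 of 10 (median 0.46, sums 3672 to 6272 against 2641 to 3729), and for T cells 5 of 10 (median −0.04, sums 1045 to 1404 against 1018 to 1297). All 12 epithelial markers of the labelled tissue passed the filter and 4 were higher (median −0.05, sums 245020 to 278360 against 260080 to 281100), and of 10 smooth muscle markers 0 (median −0.36, sums 7129 to 13236 against 6688 to 24890). Of 7 enteric neuron and glia markers tested 4 were higher (median 0.02), and of 3 erythroid markers 1 (median −0.04). None of these markers was at 0 in all 6 libraries, and the part of any cell type in the ribosomal protein result was not tested.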

How the data were processed

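Total RNA extracted with TRIzol from colon was made into 3 cKO and 3 WT libraries with the NEBNext Ultra RNA kit. The submitters' processing notes name HISAT2 2.0.5, featureCounts 1.5.0-p3 and the build hg18. The last is a human build, whereas the deposited gene identifiers and coordinates are those of mouse, and 83 of 85 ribosomal protein genes have the same coordinates in GENCODE M21 on GRCm38. Use of strand and treatment of reads that match several genes are not given in the sources used here. The authors deposited 1 table with normalized counts, a signal obtained by dividing each library's reads on a gene by that library's size factor. It also holds the authors' genotype means, log2 fold changes, p-values and adjusted p-values, none of which were used, and a gene length, gene annotation and coordinates. All 6 library columns were used, and 0 other sample columns were found.

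Values were transformed to log2(normalized count + 1), genes with a mean of at least 10 were kept (16246 of 27202), and genotypes were compared with limma 3.58.1 in R 4.3.3 (trend and robust settings, Benjamini-Hochberg adjustment over all genes tested, threshold 0.05). Gene lists are described by counts and medians without a test, and shares of paralog pairs were compared with exact permutation tests (scipy 1.17.1, Python 3.11.15). Transcripts of GENCODE M21 were cut into 50-base windows to find sequence shared between genes. Figures were drawn with matplotlib 3.10.9. On simulated data with 200 of 16246 genes changed, in 10 runs, 53.0% of changes of 1 and 80.6% of changes of 2 on the log2 scale were recovered, and 4.25% of calls were unchanged genes. Only rises of these sizes were simulated, with noise independent between genes. The rates therefore do not cover changes near the ribosomal protein median of 0.14.

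The ribosomal protein genes and the lists were chosen with earlier results of these data known. Named genes were, in each subunit, the 5 highest and 5 lowest fold changes (mean of at least 50), the 5 smallest p and the 5 highest levels per length, together with the stalk genes, Rpsa, Rpl5, Rpl11, Rps3, Rps6, Rps27a, Rpl41 and the paralogs, and the 3 smallest p in each other list. Rpl37a, Rpl7a, Rpl17, Rpl24, Rpl13a, Rps15a and the named pseudogenes were chosen after their values were seen, and some genes are not reported here. Alternatives were other scalings, pseudocounts and filters, array weights, replicate number as a block, leaving out each library and, chosen after seeing the data, equal totals, removal of a length trend, and subsets of the ribosomal protein genes. The depth limits precision for genes with few counts, and intervals that need read counts are not given.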

Additional observations from a re-analysis of the deposited data

How the results depend on the processing

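Under 17 alternatives the median log2 fold change of the 83 ribosomal protein genes stayed positive, between 0.08 with array weights, which gave cKO3 a weight of 4.39, and 0.18 without WT3. Rpl38 alone passed the adjusted threshold, with array weights (1 gene, where 631 of all genes were called), and under the other alternatives 0 did. The number higher at an unadjusted p under 0.05 was 19 without a filter on low values (22.4%, beside 5.37% of all genes) and 19 with the length trend removed (22.9%, beside 7.3%, added after seeing the data). Leaving out 1 library in turn it ranged from 3 (3.61%, beside 5.99% of all genes, without WT1) to 20 (24.1%, beside 5.08%, without WT3). It was 4 without WT2 (4.82%, beside 4.91%) and 5 without cKO2 (6.02%, beside 8.94%). The number lower then ranged from 0 to 1 of 83, where 4.53% to 8.77% of all genes were lower. With array weights 1 gene of 83 was lower, where 13.1% of all genes were. With replicate number as a block 7 were higher (8.43%, beside 7.41% of all genes), 0 passed the adjusted threshold, and the median was again 0.14. Libraries of the same number had correlations of −0.03, −0.09 and −0.06 in their deviations, and those of different numbers −0.02 to 0.06. Deviations from a mean of 3 libraries depend on each other, so these values cannot show whether a number marks a litter or batch. Fold changes near 0 changed sign. With array weights Rps4x (−0.0467), Rpl5 (−0.0422), Rpl36al (−0.0306), Rps3a1 (−0.0175), Rps6 (−0.0119) and Rpl7l1 (−0.00326) were below 0. Rpl7l1 was at −0.0154 after quantile normalization, −0.000724 after scaling to equal sums without these genes and −0.00463 after scaling to equal totals. With each library left out in turn, values that crossed 0 among the ribosomal protein genes named here included those of Rpl7a from −0.26 to 0.33, Rpl17 from −0.12 to 0.30, Rpl23a from −0.18 to 0.096, Rpl8 from −0.062 to 0.037, Rps19bp1 from −0.23 to 0.016, Rps13 from −0.12 to 0.042, Rpl7l1 from −0.10 to 0.059, Rpl5 from −0.0170 to 0.077, Rps27a from −0.31 to 0.57, Rpl22l1 from −0.072 to 0.14 and Rpl36al from −0.033 to 0.25. The cause was not tested. The count models planned on recovered reads (edgeR and DESeq2) were not run.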
